A study of Mus musculus with 4 samples.

Results

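Vim, Mgp and Spock2, with 7 genes used to read the epithelial or mesenchymal state of a cell (Cdh1, Cdh2, Epcam, Zeb1, Zeb2, Snai1 and Snai2), were examined in mouse colon adenoma organoids. The 10 genes were chosen by name with the difference between the genotypes already known, and every probe set annotated to them was kept, which gave 20 probe sets for 10 of the 17097 genes on the array. The choice used the genotype difference of at least Vim, Mgp and Spock2. Differences between genotypes are therefore given for all 10 genes as a description, and no p-value is given for them.

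RNA from 4 cultures was measured on Affymetrix arrays. All 4 came from 3D organoids of colon adenoma on a C57BL/6 background that carried Apcfl/fl and VillinCreERT2, a tamoxifen-inducible Cre recombinase driven in intestinal epithelium by the Villin promoter, and all were cultured for 7 days with 50 ng/ml of EGF, with a ROCK inhibitor at 10 µM at passaging. In 2 cultures, labelled Apc null, the Gata6 alleles were intact (Gata6+/+). The other 2 cultures, labelled Gata6 null/Apc null, also carried Gata6fl/fl. Batches A and B each held 1 array of either genotype. The series asks which genes depend on the endodermal transcription factor GATA6 in adenoma cells that lack Apc, the Wnt pathway suppressor. The design text calls the cultures biological replicates and gives no mouse for them, so the spread between arrays may be technical. The organoid cultures are bulk samples, in which fewer cells of a type and less RNA per cell cannot be told apart.

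Epithelial cells hold together through E-cadherin, encoded by Cdh1, and other junction proteins. In an epithelial-mesenchymal transition, zinc finger repressors of the SNAI and ZEB families bind E-box sequences and silence Cdh1 and other epithelial genes, while cells gain N-cadherin (Cdh2) and vimentin (Vim), an intermediate filament protein typical of mesenchymal cells. Cells can also carry vimentin while they keep their epithelial junctions, which is often called a partial state.

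The deposited values are log2 units after RMA, so a difference of 1 is a doubling. Probe sets whose mean over the 4 arrays lay under 4.45, the 40th percentile of all probe sets, were treated as dim, and genes whose brightest probe set was dim were not tested. Array medians lay between 4.91 and 5.04 and the arrays correlated at 0.963 to 0.979 across probe sets. Gata6 itself read 9.37 and 9.40 at its brighter probe set with the label Gata6 null/Apc null, and 8.89 and 8.61 with the label Apc null. The position of this probe set relative to the deleted part of Gata6 is not known here, so it does not check the labels, and every direction below rests on the labels. All differences are Gata6 null/Apc null minus Apc null. Values of a pair of arrays are given for batch A first and batch B second.

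Sequences before the start sites are shown for Vim and Spock2, which were high on the same arrays, and for Epcam, an epithelial gene whose level differed little between the genotypes. RefSeq start sites on GRCm38.p6 were found in the table used here for 5 of the 10 genes. Each line is the 250 bases before the start, 5′ to 3′ on the plus strand, at chr2:13574061-13574310 for Vim, chr10:60106007-60106256 for Spock2 and chr17:87635729-87635978 for Epcam. Capitals mark a TCF/LEF motif in Spock2 and E-boxes in Epcam.
Vim: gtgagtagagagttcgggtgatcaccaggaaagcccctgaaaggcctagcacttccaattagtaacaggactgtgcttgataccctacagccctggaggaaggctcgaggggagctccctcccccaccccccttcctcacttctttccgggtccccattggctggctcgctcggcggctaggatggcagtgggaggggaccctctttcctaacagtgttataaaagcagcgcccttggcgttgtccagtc
Spock2: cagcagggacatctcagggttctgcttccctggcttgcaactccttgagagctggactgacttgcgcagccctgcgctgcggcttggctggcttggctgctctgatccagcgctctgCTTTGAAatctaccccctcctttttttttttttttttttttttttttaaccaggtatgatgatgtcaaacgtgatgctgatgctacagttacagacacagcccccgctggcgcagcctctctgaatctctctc
Epcam: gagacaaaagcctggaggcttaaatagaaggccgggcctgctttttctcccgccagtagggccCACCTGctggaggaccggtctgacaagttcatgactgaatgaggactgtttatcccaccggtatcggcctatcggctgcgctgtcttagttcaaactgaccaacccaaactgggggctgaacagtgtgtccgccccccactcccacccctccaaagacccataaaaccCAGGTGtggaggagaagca
The motifs were searched on both strands. They were CACCTG for the E-box, which SNAI and ZEB proteins bind, CTTTGAA or CTTTGAT for TCF/LEF factors, and AGATAA with AGATAG and TGATAA with TGATAG for GATA factors. The marked motifs do not overlap. Epcam held 2 E-boxes, which begin 187 and 19 bases before the start, and an E-box was present in 17.2% of all 32851 promoter windows of this length. Spock2 held 1 TCF/LEF motif, which begins 133 bases before the start, against 7.48% of all windows with such a motif. The Vim window held none of these letters, and none of the 3 windows held a GATA motif, which 26.5% of all windows did. A match is a description of letters and does not show binding.

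Vim, which encodes vimentin, was higher in both Gata6 null/Apc null arrays than in both Apc null arrays at all 3 of its probe sets. The probe set with the highest mean read 8.74 and 9.20 in the Gata6 null/Apc null arrays, against 4.81 and 4.87 in the Apc null arrays. The groups were far apart, at 8.97 ± 0.32 against 4.84 ± 0.04 (SD, n = 2 each). The difference of 4.13 (SE 0.27) is 17.5-fold. The second probe set read 8.67 and 9.45 against 4.35 and 4.18, a 27.7-fold difference. The dimmest read 8.41 and 8.85 against 3.38 and 3.81, a 32.8-fold difference. All 3 probe sets gave the same order of the groups. The Apc null values of the other probe sets lay under the filter level of 4.45, so their folds depend on the array floor. Those of the first probe set lay above it but under the array medians, so its fold may also depend on the floor. Set against the filter level instead, the Gata6 null/Apc null means were 22.9-fold, 24.4-fold and 18.1-fold above it, in the order given.

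Mgp encodes the matrix Gla protein, a small secreted protein that is carboxylated by a vitamin K-dependent enzyme and inhibits calcification. Its single probe set read 9.93 and 11.10 in the Gata6 null/Apc null arrays, against 5.18 and 5.77 in the Apc null arrays. The difference of 5.03 (SE 0.47) was made up of 4.74 within batch A and 5.33 within batch B.

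Spock2 encodes testican-2, a secreted proteoglycan of the SPARC family. Its brighter probe set read 11.28 and 11.73 in the Gata6 null/Apc null arrays, against 5.15 and 6.29 in the Apc null arrays. The other probe set read 7.83 and 9.03 against 4.50 and 4.52. The groups did not overlap at either probe set, but the size of the difference was not the same, at 5.79 for the brighter and 3.92 for the other. The batches were ordered differently as well. The brighter probe set gave 6.14 within batch A and 5.45 within batch B, while the other gave 3.33 and 4.52.

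By the size of the increase, Spock2 stood at place 6, Mgp at place 8 and Vim at place 19 of the 11874 genes tested. In a limma fit of genotype over all genes these 3 were the members with an adjusted p under 0.05, out of 5 members tested, all higher, beside 0.648% of all genes in either direction and 0.522% called higher. The choice of the members used this contrast, so that count is no test of them and nothing is read from it. Mgp was not among the called genes on dropping Apc null batch A, nor when all probe sets were fitted separately.

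**Figure D1:**
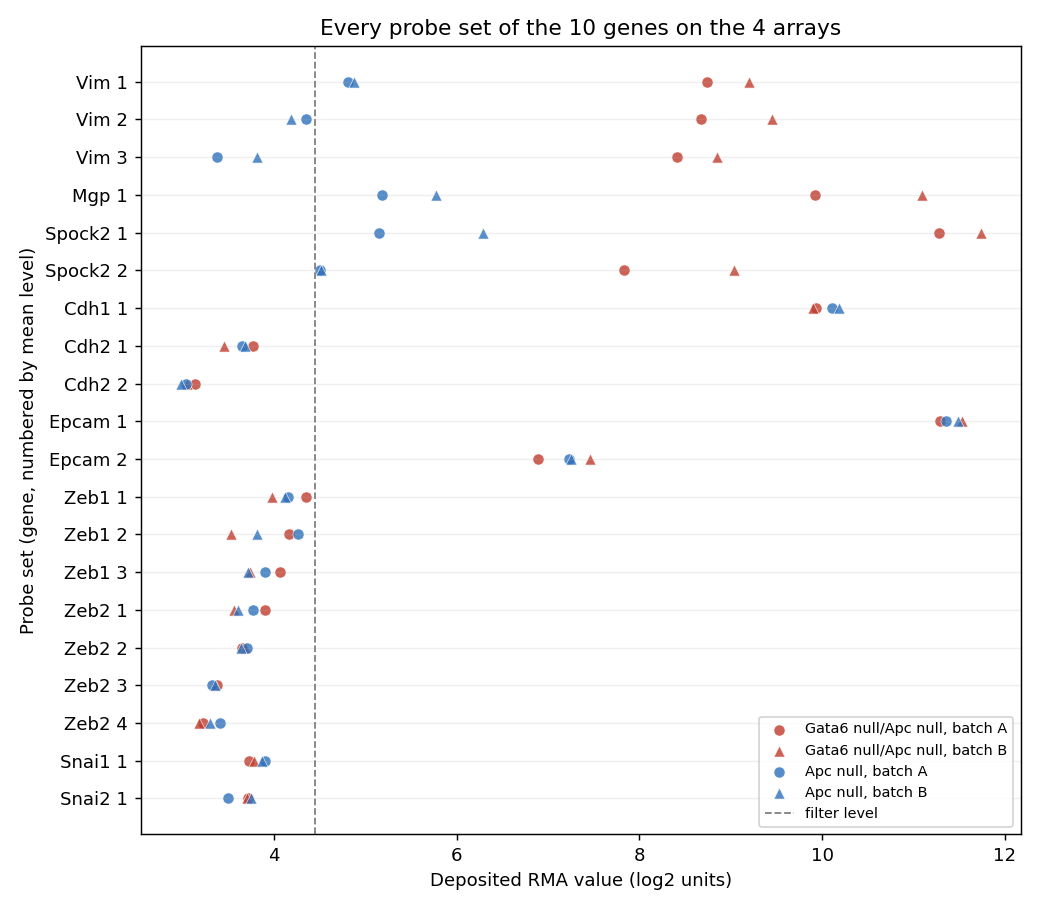
Deposited RMA values in log2 units (x axis) of all 20 probe sets of the 10 genes (y axis, numbered within a gene by mean level), with 1 point per array, red for Gata6 null/Apc null and blue for Apc null, circles for batch A and triangles for batch B. The red points of Vim, Mgp and Spock2 stand apart to the right of the blue ones, those of Cdh1 and Epcam lie close to the blue ones, and all points of Cdh2, Zeb1, Zeb2, Snai1 and Snai2 lie left of the filter level of 4.45 (dashed).

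Cdh1 and Epcam, the epithelial genes of the set, remained bright on all 4 arrays. Cdh1 read 9.93 and 9.90 in the Gata6 null/Apc null arrays, against 10.11 and 10.19 in the Apc null arrays. The groups did not overlap, which was also so for 32% of all genes tested, and the difference was -0.23 (SE 0.13), a 1.17-fold lower mean. Epcam encodes an adhesion molecule of epithelial cells. Its brighter probe set read 11.29 and 11.53 against 11.36 and 11.48, so the groups overlapped, with a difference of -0.01 (SE 0.12) whose sign turned with centred arrays. Its other probe set read 6.89 and 7.46 against 7.23 and 7.25 and also overlapped.

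Cdh2, which encodes N-cadherin, was dim on every array. Its probe sets read 3.77 and 3.45 against 3.65 and 3.69, and 3.13 and 3.04 against 3.04 and 2.98. Both lay under the filter level throughout, on the arrays where Vim was high as well as where it was low.

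The repressors of the SNAI and ZEB families were dim as well. Snai1 read 3.72 and 3.78 in the Gata6 null/Apc null arrays, against 3.90 and 3.87 in the Apc null arrays. Snai2 read 3.71 and 3.71 against 3.50 and 3.74. The brightest of 3 Zeb1 probe sets read 4.35 and 3.98 against 4.16 and 4.12, and the brightest of 4 Zeb2 probe sets read 3.90 and 3.57 against 3.77 and 3.61. Including Cdh2, 11 of the 20 probe sets stayed under the filter level on all 4 arrays. The 5 genes they belong to had no brighter probe set, so 5 of the 10 genes were left out of the fit by the filter, and a change in these transcripts below the array floor was not detectable. The log2 differences of these 11 probe sets ran from -0.19 to 0.09.

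The batch letter was not used to choose the genes, so the difference between batch B and batch A was tested, with genotype in the same limma fit over all 11874 genes. Mgp was higher in batch B by 0.88 (SE 0.19, adjusted p = 0.0311) and Spock2 by 0.80 (SE 0.19, adjusted p = 0.0395). At the probe sets fitted, both were higher in batch B in each genotype. The other Spock2 probe set read 4.50 and 4.52 in the Apc null arrays, near the filter level. Without a trend in the moderation neither Mgp nor Spock2 passed, with adjusted p-values of 0.0629 and 0.0873. Vim differed between batches by 0.26 (SE 0.19, adjusted p = 0.404), Epcam by 0.18 (SE 0.06, adjusted p = 0.0988) and Cdh1 by 0.02 (SE 0.09, adjusted p = 0.889). Thus 2 of 5 members tested passed, beside 16.6% of all genes tested.

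**Figure D2:**
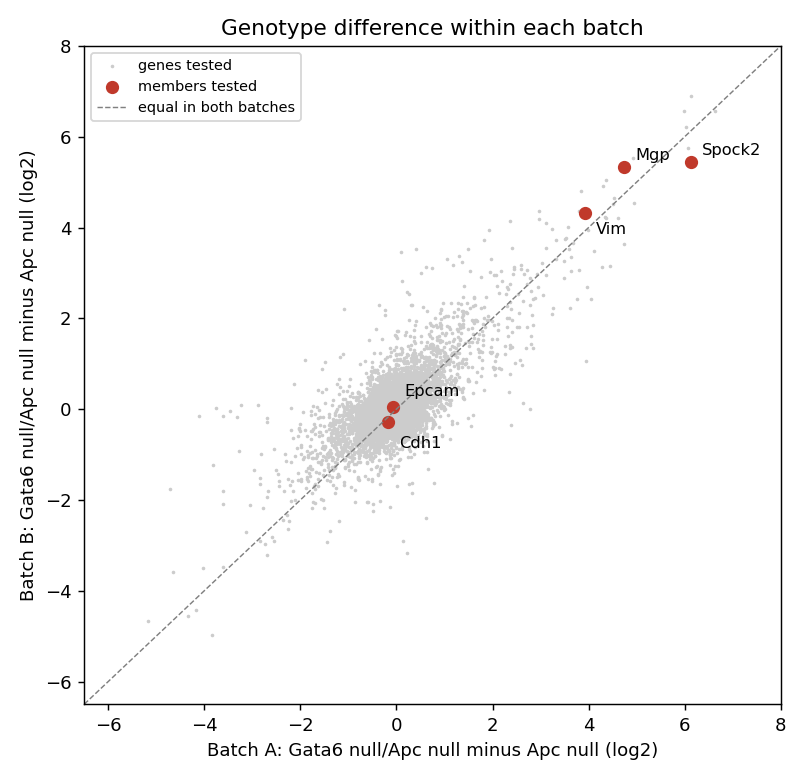
Log2 difference Gata6 null/Apc null minus Apc null in batch A (x axis) against the same difference in batch B (y axis), 1 grey point per gene tested and red points for the 5 members tested, with a dashed line where both batches are equal. Vim, Mgp and Spock2 lie at the upper right, Spock2 below the line at 6.14 and 5.45, while Cdh1 and Epcam lie near 0.

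Each gene's pattern over the 4 arrays was compared with that of all genes tested, by the Euclidean distance between values centred on the gene's own mean. Nearest to Vim were the Dishevelled antagonist gene Nkd1 (distance 0.29 log2 units), the Wnt-responsive transcription factor gene Lef1 (0.31), Erich3 (0.31), the cation channel gene Trpm1 (0.41) and the homeobox gene Irx5 (0.42). Nearest to Mgp were the metallothionein gene Mt3 (0.34), Tesc (0.48), Nptx1 (0.49), Robo1 (0.53) and Prox1 (0.62). Spock2 had no gene as near, the first being the zinc transporter gene Slc30a2 (0.59), followed by the Wnt inhibitor gene Wif1 (0.89), Nptx1 (0.93) and Mt4 (0.97). Vim and Mgp were 1.10 apart, Mgp and Spock2 0.99, and Vim and Spock2 1.83. With 4 arrays in 2 groups, nearness means above all a genotype difference of similar size.

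Other genes were taken from 11 lists without the members. Some lists hold genes of the epithelial-mesenchymal programme or of TGF-beta signalling. The rest hold mineralisation genes or relatives of Vim, Mgp and Spock2, so the counts over all lists do not describe that programme alone. None of the 115 list genes tested passed an adjusted p of 0.05 in the limma fit of genotype, beside 0.648% of all genes, while 12 had an unadjusted p under 0.05 (10.4%, beside 7.97% of all genes). With the batch as a block 13 passed, 6 higher and 7 lower, which is 11.3% beside 6.88% of all genes. The median difference over the 115 genes was -0.07, beside -0.03 over all genes tested.

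Among 9 other transcription factors of the transition on the array, 4 were bright enough to test, with a median difference of 0.43. Tcf4, which encodes the E protein E2-2, had the largest difference. It read 9.38 and 9.47 in the Gata6 null/Apc null arrays, against 7.50 and 6.99 in the Apc null arrays, a difference of 2.18 (SE 0.26). Its limma adjusted p was 0.0571, and 0.00224 with the batch as a block. Snai3 differed by -0.50 (adjusted p = 0.685) and Twist2 by 0.64 (adjusted p = 0.799). Twist1, a repressor of Cdh1, read 3.65 to 3.76 on the 4 arrays and was not tested. Foxc2 was too dim on average to be tested but read 4.23 and 5.31 against 3.38 and 3.19. The mesenchymal cadherin gene Cdh11, of the cadherin list, likewise read 4.03 and 5.18 against 3.38 and 3.25. Both were chosen after their values were seen.

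Of the regulators that hold the epithelial state, 11 were tested and none passed the threshold, with or without the block. Over all genes 0.648% passed without the block and 6.88% with it, so among 11 genes few or none would be called at these shares. Their median difference was -0.01. Ovol2, a repressor of mesenchymal genes, read 6.90 and 6.08 against 5.77 and 5.41 (difference 0.90, SE 0.35, adjusted p = 0.648). Grhl1 differed by 0.69 (adjusted p = 0.746) and Grhl3 by -0.69 (adjusted p = 0.750). The splicing regulator gene Esrp1, chosen after its values were seen, read 9.11 and 9.03 against 9.18 and 8.88.

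All 27 epithelial adhesion and junction genes on the array could be tested. Their median difference was -0.19, with 6 of 27 above 0, beside 44.1% of all genes. With the block 3 of 27 were lower, beside 2.97% of all genes. They were Cldn4, a claudin of the tight junction, at 9.36 and 9.93 against 10.48 and 10.44 (difference -0.81, SE 0.22, adjusted p = 0.367, or 0.0327 when blocked by batch). Next to it stood the desmosomal cadherin gene Dsc2 (-0.79, adjusted p = 0.468, or 0.0145 when blocked by batch). Ocln, which encodes occludin of the tight junction, followed (-0.71, adjusted p = 0.503, or 0.0231 when blocked by batch). Among 13 other cadherins and catenins, the protocadherins of the brush border were lower with the block. Cdhr2 differed by -1.04 (adjusted p = 0.809, or 0.00444 when blocked by batch) and Cdhr5 by -0.99 (adjusted p = 0.270, or 0.0192 when blocked by batch). Cdh13 differed by 0.59, or 0.37 with its probe sets averaged (adjusted p = 1.00), and the median of these 13 was -0.07.

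Of 20 mesenchymal genes on the array, 8 were too dim to test and the other 12 had a median difference of 0.03. Fn1, which encodes fibronectin, read 8.44 and 9.23 in the Gata6 null/Apc null arrays, against 6.75 and 8.41 in the Apc null arrays. Its difference was 1.25 (SE 0.62, adjusted p = 0.828, or 0.0271 when blocked by batch), with 1.68 within batch A and 0.82 within batch B. Cald1, which encodes the actin-binding protein caldesmon, differed by 1.06 (SE 0.28, adjusted p = 0.339, or 0.0194 when blocked by batch). Its probe sets gave differences of unequal size, and the value was 0.41 with them averaged and 0.20 without those of shared sequence. Timp1, a metalloproteinase inhibitor gene, differed by 0.56 (adjusted p = 0.277). The partial transition genes, 11 tested, had a median of -0.21. Among them Plaur, the urokinase receptor gene, was lower with the block (-0.80, adjusted p = 0.997, or 0.0359 when blocked by batch). Plau (-0.63, adjusted p = 0.403), Itga3 (-0.49, adjusted p = 0.662) and Inhba (1.17, or 0.52 with its probe sets averaged, adjusted p = 0.707) did not pass.

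Lists built around the families of Vim, Mgp and Spock2 were read next. Of 11 other intermediate filament genes, 7 were too dim to test, and the 4 tested ran from -0.32 to 0.06. They included the lamin genes Lmna (-0.32, adjusted p = 0.923) and Lmnb2 (-0.23, adjusted p = 1.00) and nestin, Nes (-0.08, adjusted p = 1.00). Of the vitamin K and Gla protein genes, 7 were tested with a median of -0.13. Prrg4, a transmembrane Gla protein gene, differed by -0.90 (SE 0.19, adjusted p = 0.224, or 0.0125 when blocked by batch). The growth factor-like gene Gas6 differed by -0.24 and the osteocalcin gene Bglap by -0.13 (adjusted p = 1.00 for both). The SPARC and testican list, which also held the proteoglycan genes Agrn and Hspg2 from outside that family, had 4 genes tested. Their median was -0.04. Smoc2 differed by 0.53 (adjusted p = 0.853), the agrin gene Agrn by -0.21 and the perlecan gene Hspg2 by -0.17 (adjusted p = 1.00 for both), while Spock3 read 2.95 to 3.06 and was not tested.

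Among 6 mineralisation genes tested the median was 0.33. Bmp2, a bone morphogenetic protein gene, read 8.77 and 9.58 against 5.96 and 7.96 (difference 2.21, SE 0.73, adjusted p = 0.492, or 0.00939 when blocked by batch). Bmp4 differed by 0.75 (adjusted p = 0.641) and the pyrophosphate transporter gene Ank by 0.59 (adjusted p = 0.735). TGF-beta signalling is a classical inducer of the transition, and 17 of its genes were tested with a median of 0.13. Ltbp1, which encodes a binding protein of latent TGF-beta, read 5.30 and 5.50 against 4.10 and 3.95. The Ltbp1 difference was 1.37 (SE 0.16, adjusted p = 0.0548, or 0.00744 when blocked by batch). The Apc null values lay under the filter level, so the size of this difference depends on the array floor. The ligand gene Tgfb3 read 5.83 and 7.83 against 4.82 and 6.61 (difference 1.11, adjusted p = 1.00, or 0.0240 when blocked by batch). The receptor genes Tgfbr2 (-0.56, adjusted p = 0.727) and Tgfbr3 (0.64, adjusted p = 0.535) did not pass.

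**Figure D3:**
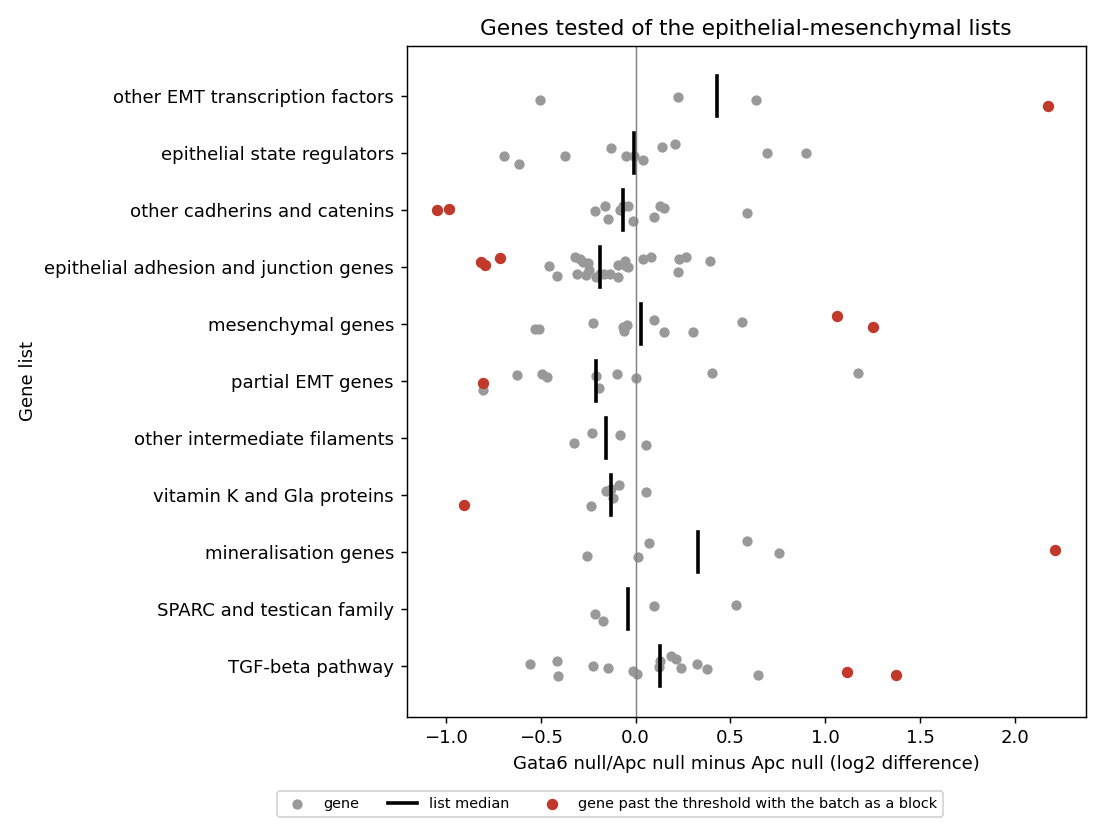
Log2 difference Gata6 null/Apc null minus Apc null (x axis) of each gene tested in the 11 lists (y axis, points spread vertically for legibility), with the list median as a black bar and, in red, genes called when batch is a block. Tcf4 and Bmp2 lie farthest to the right at 2.18 and 2.21, and the list medians lie between -0.21 and 0.43.

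The labelled tissue was checked against marker genes. Of 10 colon epithelium markers on the array, Vil1, Cdx1, Lgals4, Gpa33, Cdh17 and Hnf4a read above 9 on every array. Krt20, a marker of mature colonocytes, read 4.79 to 5.96, and the chloride exchanger gene Slc26a3 was near the filter level at 4.03 to 4.95. The sum of the log2 levels of the 10 markers ran from 88.5 to 89.0 in the Gata6 null/Apc null arrays and from 93.8 to 93.8 in the Apc null arrays. None of the 9 tested passed in the limma fit. With the block 33.3% of the 9 were lower, beside 2.97% of all genes. They were Cdx2 (7.29 and 8.11 against 9.13 and 9.41, adjusted p = 0.00545), Car1 (8.67 and 9.75 against 10.37 and 11.50, adjusted p = 0.000381) and Hnf4a (adjusted p = 0.0419). The difference was above 0 for 0 of the 9 tested, beside 44.1% of all genes. Whether this shift has a part in the levels of Vim, Mgp and Spock2 was not tested.

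Vimentin and matrix Gla protein are also made by fibroblasts and other mesenchymal cells, so their markers were read on the same arrays. Of 13 fibroblast markers, 9 stayed under the filter level on all 4 arrays, among them Pdgfra (3.34 to 3.52), Col1a1 (4.15 to 4.34), Col1a2 (3.67 to 3.82) and Col3a1 (3.97 to 4.30). Their summed log2 level ran from 57.9 to 58.1 in the Gata6 null/Apc null arrays and from 58.3 to 58.8 in the Apc null arrays. The exception in brightness was Fbln1, at 8.80 and 9.62 against 9.84 and 9.75, which was not higher in the Gata6 null/Apc null arrays. Only 4 fibroblast, 3 smooth muscle, 4 endothelial and 3 enteric glia and neuron markers were bright enough to test. None of these passed, with or without the block, beside 0.648% of all genes without it and 6.88% with it. With so few genes tested, nothing is read from that count. Summed log2 levels ran from 31.1 to 32.6 against 31.8 to 32.1 for 7 smooth muscle markers, of which 3 stayed under the filter level on all arrays. They ran from 40.3 to 40.6 against 40.8 to 41.1 for 9 endothelial markers (5 under), and from 26.2 to 28.1 against 27.3 to 27.7 for 6 glia and neuron markers (1 under). The endothelial gene Pecam1 read 4.43 to 4.80, while Vwf read 5.08 to 6.04 and Egfl7, the brightest of that list, 6.23 to 6.37. Acta2, the brightest smooth muscle marker, read 5.66 to 5.93. Of 9 immune markers 4 stayed under, among them Ptprc (3.07 to 3.25), and the sum ran from 39.6 to 40.2 against 43.7 to 46.4. Lyz2, a lysozyme gene, was the only immune marker to pass in the limma fit, as lower, at 6.51 and 6.16 against 10.36 and 11.14 (adjusted p = 0.0243). Its difference was -4.41. The genotypes overlapped at 7 of the 9 immune markers, which is near the share over all genes tested, of which 32% did not overlap. Among the other macrophage markers Csf1r read 4.58 to 4.73 and Itgam 3.33 to 3.71. Cd68 read 4.94 and 7.23 against 5.92 and 7.57. The source of the Lyz2 signal was not tested.

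**Figure D4:**
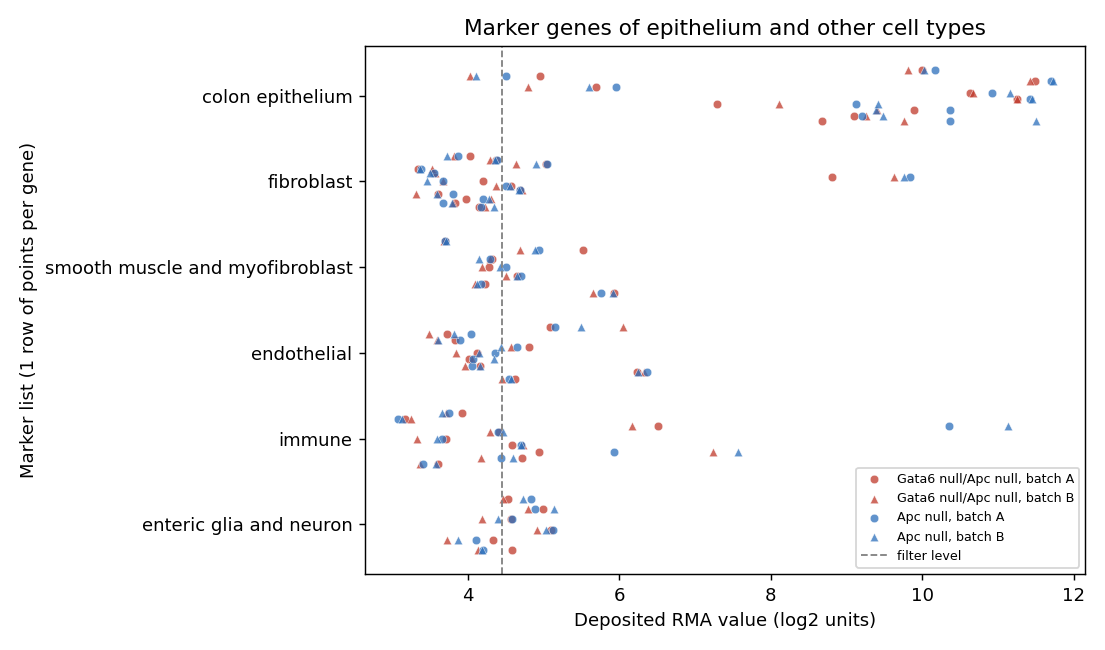
Deposited RMA values in log2 units (x axis) of the marker genes on the array for colon epithelium and 5 other cell types (y axis, 1 row of points per gene within a list), with 1 point per array, coloured by genotype and shaped by batch as named in the legend. Most markers of the other cell types lie near or left of the filter level of 4.45 (dashed) on all arrays, with Fbln1 among fibroblast markers and Lyz2 and Cd68 among immune markers the brightest exceptions.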

How the data were processed

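Organoid RNA from 2 arrays per genotype was analysed. The authors deposited log2 values, 1 per probe set. The submitters' processing notes name RMA and affy, without a version. RMA compresses low values, so dim probe sets understate differences, and 25 ng of total RNA was amplified before labelling, per the labels' protocols. Of 45141 probe sets, 104 controls were left out, 28898 had 1 gene in the platform annotation, 551 several and 15588 none. No gene was named from the last 2 kinds. For each gene the probe set of highest mean was taken, and those under the 40th percentile were left out. The symbols of all 20 member probe sets matched a RefSeq table by Entrez identifier.

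The genotype fit used limma 3.58.1 under R 4.3.3 (lmFit, eBayes with a trend, Benjamini-Hochberg adjustment over 11874 genes, threshold 0.05, two-sided). Standard errors are those of this fit, with 2 residual degrees of freedom and 2.83 added by the moderation. The labels give a batch letter to 1 array of each genotype, which pairs the arrays. The batch differences of the genotypes correlated at 0.675 across genes. The fit with the batch as a block, which has 1 residual degree of freedom, is given where it changes a call. The fits were run on simulated data with known differences, as a check on the bias of the estimated differences. The simulated arrays for the fit without the block held no batch difference shared by the genotypes, unlike the real arrays. The members and lists were chosen with earlier results of these data known. Named list genes were the 3 with the smallest p per list, as none passed, and up to 4 past the threshold with the block; the 5 nearest genes were named for Vim, Mgp and Spock2, of which 1 is not reported here. The number of arrays limits the precision.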

Additional observations from a re-analysis of the deposited data

How the results depend on the processing

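The differences of Vim, Mgp and Spock2 kept their sign under every alternative run. They were large and known at the choice of the genes, so the kept sign is no test of them. With the probe sets of a gene averaged, Vim differed by 4.65 and Spock2 by 4.86. Leaving out 1 array in turn gave 3.90 to 4.36 for Vim, 4.45 to 5.62 for Mgp and 5.22 to 6.36 for Spock2. With all 4 arrays the members called numbered 2 to 3 over the runs, which is no test of them either. The count of all genes called was 77, but 128 with arrays centred on their medians, 817 with the replicate block and 33 to 130 with 1 array left out. It was 33 or 48 on dropping Apc null batch A or B, and 130 on dropping Gata6 null/Apc null batch A. Of the list genes, 13 passed with the replicate block, 2 with centred arrays (Ltbp1 and Tcf4) and 0 to 1 with 1 array left out, that 1 being Ltbp1 without either Gata6 null/Apc null array. The batch calls of Mgp and Spock2 fell to 0 without a trend in the moderation, and Cdh1 differed between batches by -0.044 with centred arrays. Several list genes called with the block moved by over 1.5 times with 1 array left out. Fn1 ran from 0.43 to 2.08 and Bmp2 from 1.21 to 3.21, each lowest without Apc null batch A and highest without Apc null batch B. Tgfb3 ran from 0.11 to 2.12, Plaur from -1.34 to -0.27, Cdhr2 from -1.61 to -0.48 and Cldn4 from -1.10 to -0.52. Inhba, which was not called, ran from 0.49 to 1.85. The fits with 1 array left out had no batch term and held unequal batches, so their differences include part of the batch difference. Within batches A and B the difference was 1.00 and 1.23 for Tgfb3, -0.81 and -0.80 for Plaur, and -1.12 and -0.96 for Cdhr2. It was -1.12 and -0.50 for Cldn4, 2.80 and 1.61 for Bmp2, and 1.68 and 0.82 for Fn1. Some list differences turned sign. Hspg2 became 0.0031 with its probe sets averaged and 0.18 without shared-sequence probe sets, for which both Epcam probe sets are also lost. With 1 array left out, Agrn ran from -0.71 to 0.28, Bglap from -0.34 to 0.082, Lmnb2 from -0.60 to 0.15 and Nes from -0.17 to 0.0092. Beyond the unequal batches with 1 array left out, the cause of these shifts was not tested. With 2 arrays per group and values near the array floor, changes in the dim SNAI, ZEB and Cdh2 transcripts could not be resolved.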
